A study of Mus musculus with 6 samples.

Results

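Transcription factors that carry the circadian clock's rhythm to its output genes, 9 in all, were followed in the livers of ChLO and WT mice: the REV-ERB repressors Nr1d1 and Nr1d2 and the activator Rora of the competing ROR family, the PAR bZIP activators Dbp, Tef and Hlf with their opponent Nfil3, and the DEC repressors Bhlhe40 and Bhlhe41. The 9 genes were taken by name, out of 18193 genes with a probe set of a single symbol, and every such probe set of theirs was read, 23 of 45101 on the array. ChLO livers came from 3 male mice with floxed alleles of Chrebp (now Mlxipl) and an albumin-Cre transgene, which deletes the gene in hepatocytes. WT livers came from 3 male wild-type mice, and whether these carried floxed alleles or Cre is not in the labels. All mice were 12 weeks old and ate a diet with 60% sucrose for 1 week before their livers were frozen, 1 Affymetrix array per mouse. The hour of collection and the time since the last meal are not in the labels. Both move clock transcripts in liver, and their part in any difference was not tested.

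The clock of liver cells is a loop in which CLOCK and BMAL1 (encoded by Arntl) switch on genes with E-boxes, among them those for their own inhibitors. REV-ERB and ROR proteins compete for 1 element, through which they repress or activate Arntl, Clock, Cry1 and Nfil3. DBP, TEF and HLF activate, and NFIL3 represses, genes with D-boxes, many of which serve detoxification and bile acid synthesis. DEC proteins compete with CLOCK and BMAL1 at E-boxes. Meals act on the loop too: insulin and glucose induce Bhlhe40 in rodent hepatocytes, where it is a known target of ChREBP, the carbohydrate-activated factor encoded by Mlxipl.

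Some of these elements stood in the promoter windows of the members, and they are shown because the genes that carry them are read below. RefSeq windows of 300 bases (250 before a transcript start and 50 after it, GRCm38.p6) were read for 8 members, 9 windows in all, and none was read for Bhlhe40. The letters searched, on both strands, were CACGTG for the E-box, TAGGTCA for the core of the ROR element, TTANGTAA for the D-box and CANGNG followed after 5 bases by CNCNTG for the carbohydrate response element. An E-box stood in both windows of Tef and in that of Bhlhe41, against 7.15% of the 32851 windows of all genes. A ROR core stood in the window of Nfil3, against 2.61% of all windows. Neither the D-box letters (2.32% of all windows) nor the carbohydrate response element (0.557%) were found in any of the 9, which says nothing of Bhlhe40. A match is a description of letters and not of a bound site. Capitals mark the match in these stretches, written 5′ to 3′ along the gene.
Tef, first window, chr15:81802534-81802563, plus strand: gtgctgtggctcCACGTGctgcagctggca
Tef, second window, chr15:81811264-81811293, plus strand: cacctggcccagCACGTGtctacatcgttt
Bhlhe41, chr6:145865556-145865585, minus strand: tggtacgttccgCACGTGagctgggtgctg
Nfil3, chr13:52981033-52981063, minus strand: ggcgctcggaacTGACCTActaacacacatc
The E-boxes began 127 and 138 bases before the starts of Tef and 153 before that of Bhlhe41. The Nfil3 match is the ROR core on the opposite strand, and it began 12 bases before the start.

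Mlxipl had log2 signals of 10.34, 11.22 and 11.48 in ChLO 1, 2 and 3, against 12.61, 12.56 and 12.59 in WT 1, 2 and 3, lower in all 3 ChLO livers (difference -1.57, SE 0.28, limma adjusted p = 0.185 over 12598 genes). No source used here places its probe set against the floxed exons. The 8 hepatocyte markers fixed for this work, Alb and Ttr among them, were all past the filter on dim signals. Their summed linear signal was 289157, 283402 and 356432 in ChLO 1, 2 and 3, against 354189 to 408159 in WT livers. All 8 had lower means in ChLO, and for 4 of them every ChLO array lay below every WT array (6.19% of all genes tested). ChLO 1 and ChLO 2 also stood apart by markers of other cells. The sum of 8 stellate cell markers was 19520, 25624 and 9617 in ChLO 1, 2 and 3, against 7761 to 12409 in WT, and that of 10 Kupffer and myeloid markers was 17210, 17932 and 9966, against 10762 to 11517. Of these 10, 7 had higher means in ChLO. In ChLO 1, Clec4f (9.95), Vsig4 (10.97) and Timd4 (7.78) were below all WT livers, and Lyz2 (12.6) and Cd68 (10.73) above. In ChLO 2 each of these was above all WT livers. The sum of 6 bile duct markers, 5 of them with higher means in ChLO, was 1542, 753 and 379 in ChLO, against 220 to 389 in WT. Cldn4, at 9.95, 8.09 and 6.33 in ChLO and 5.33, 6.10 and 4.71 in WT, made up much of the sum in ChLO 1 and less of it in the other livers. Sox9 in ChLO 3 (4.52) was below all WT livers. The 8 endothelial markers summed to 7217 to 9842 in ChLO and 7144 to 8312 in WT. The log2 gap between the 3′ and 5′ probe sets of Actb, a measure of RNA integrity, was 0.84, 1.03 and 1.46 in ChLO 1, 2 and 3 and between 1.13 and 1.38 in WT. For Gapdh it was -0.25, -0.20 and -0.14 in ChLO, within the WT range of -0.31 to -0.13. In whole liver RNA, fewer cells of a type and less RNA per cell cannot be told apart.

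Across the family the clearest differences were lower signals of 2 repressors, Nfil3 and Bhlhe40, in ChLO livers. Nr1d1, whose only probe set was dim here, read higher in ChLO, and the bright factors Nr1d2, Rora, Dbp, Tef and Hlf differed by less than their spread could resolve. Of the 9 genes 8 were tested, and Bhlhe41 lay below the filter. None passed limma's adjusted p of 0.05 over all genes, and neither did any other gene (0% of 12598; 8.96% had an unadjusted p under 0.05). At an unadjusted p under 0.05, 2 of the 8 were lower in ChLO (3.50% of all genes tested) and 1 was higher (5.46%). Every ChLO array lay below every WT array for the same 2 (6.19% of all genes) and above for 1 (9.04%). Those 3 genes were Nfil3, Bhlhe40 and Nr1d1. Nr1d1, the higher one, had a WT mean of 5.21, under the filter level of 5.5. It was tested only because its ChLO signals were higher, so its place in these counts is no support. The median difference over the 8 was -0.31, against 0.06 over all genes tested. With the spike-in scaling added later, the median of all genes became 0.31, so differences are best read against that median, which puts Nfil3 at -1.28, Bhlhe40 at -0.82 and Nr1d1 at 1.75.

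**Figure D1:**
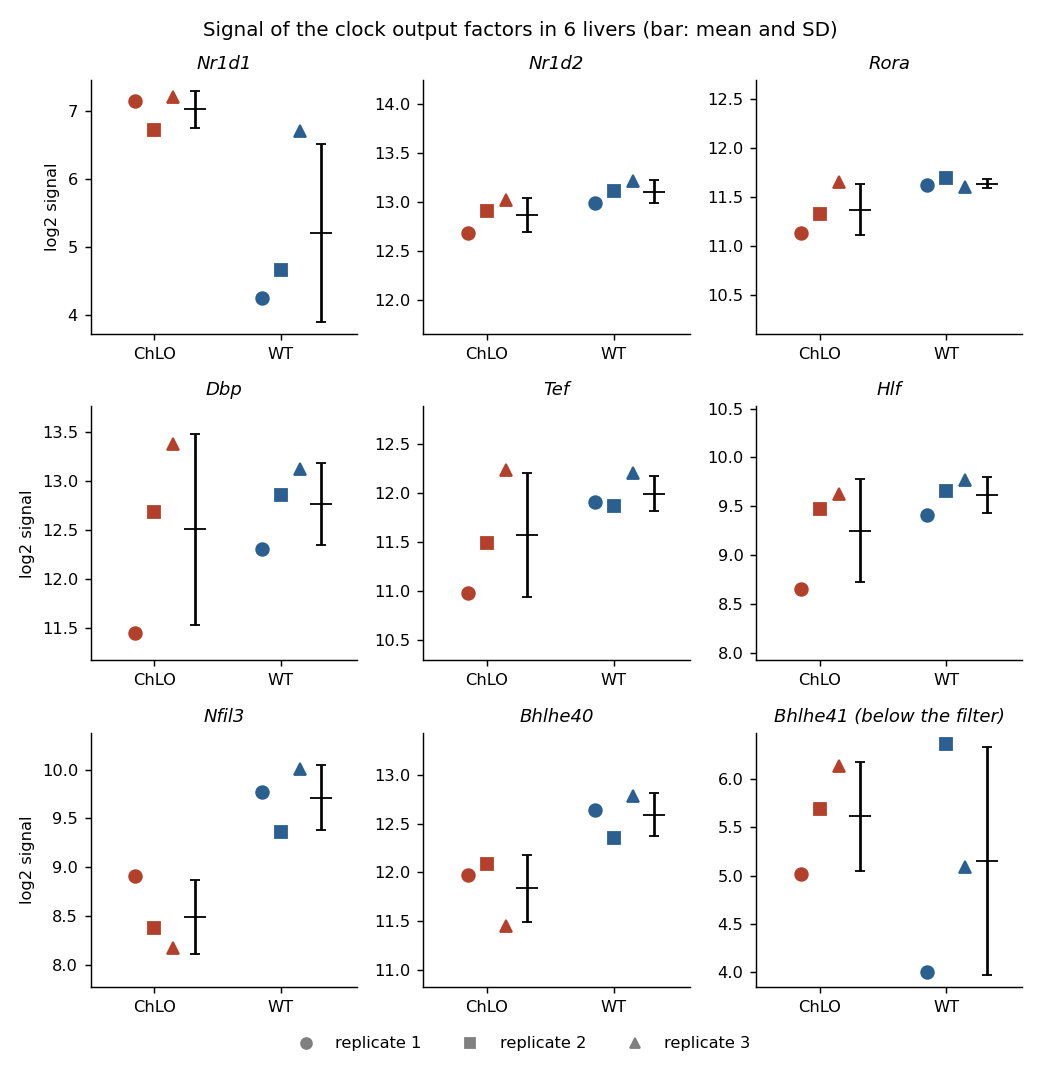
Log2 signal of the brightest probe set of each of the 9 genes, with ChLO livers on the left (red) and WT livers on the right (blue) of each panel, 1 point per mouse, and a bar for mean and SD (n = 3 each). The groups separate for Nfil3 and Bhlhe40 (ChLO lower) and, narrowly, for Nr1d1 (ChLO higher), while the ChLO points of Dbp, Tef and Hlf are spread more widely than the WT points.

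Nfil3, also called E4BP4, represses the D-box genes that DBP, TEF and HLF activate. Its log2 signal was 8.91, 8.38 and 8.18 in ChLO 1, 2 and 3, against 9.77, 9.36 and 10.01 in WT 1, 2 and 3. All 3 ChLO livers were lower than all 3 WT livers, with ChLO 3 the lowest. The mean was 8.49 ± 0.38 in ChLO and 9.72 ± 0.33 in WT (SD, n = 3 each), a difference of -1.22 (SE 0.27, 95% interval -1.84 to -0.61), or 2.34-fold lower. It ranked 81 of 12598 genes by p (unadjusted p = 0.00178) and had a limma adjusted p of 0.273. With any single array left out, the difference stayed between -1.43 and -1.07. Spike-in scaling gave -0.97. Of 18 alternatives it passed in 1, array weights (-1.33, limma adjusted p = 0.0231), where 568 genes passed and the estimate of the weights stopped before it converged. In the others the adjusted p ran from 0.0849 to 0.762. The single Nfil3 probe set gives no second reading within the array.

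Bhlhe40, also called DEC1, represses E-box genes. Its log2 signal was 11.97, 12.09 and 11.45 in ChLO 1, 2 and 3, against 12.64, 12.35 and 12.78 in WT 1, 2 and 3. Again every ChLO liver was below every WT liver, with ChLO 3 the lowest, as for Nfil3. The mean was 11.83 ± 0.34 in ChLO and 12.59 ± 0.22 in WT (SD, n = 3 each), a difference of -0.76 (SE 0.22, 95% interval -1.26 to -0.25), or 1.69-fold lower (unadjusted p = 0.00854, limma adjusted p = 0.449). With any single array left out, it ranged from -0.88 to -0.56. Bhlhe40 also had 1 probe set. The profiles of Nfil3 and Bhlhe40, each centred on its own mean, differed by a root mean square of 0.31 log2 units over the 6 arrays, the smallest distance Nfil3 had to any other tested member. The low signals in ChLO 3 came with stellate and myeloid marker sums of 9617 and 9966, within or below the WT ranges. The part of other cell types in either signal was not tested.

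Bhlhe41, or DEC2, the second DEC repressor, had 2 probe sets, both below the filter level of 5.5. The brighter read 5.02, 5.69 and 6.14 in ChLO 1, 2 and 3, against 4.0, 6.36 and 5.09 in WT 1, 2 and 3, so the groups overlapped. The other gave 0.89, 1.77 and 2.70 in the ChLO livers, against 2.46, 2.23 and 2.45 in WT. No difference was resolved at these signals, and the gene was not tested.

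Nfil3, Rora and Bhlhe41 are also known from lymphoid or macrophage lineages. Of 12 markers of lymphocytes, NK cells and innate lymphoid cells, 10 had a named probe set and 3 of those were past the filter. Their summed signal was 482, 532 and 609 in ChLO 1, 2 and 3, against 430, 574 and 360 in WT 1, 2 and 3. The sums overlapped. Of the 10, 6 had higher means in ChLO, as did 7121 of the 12598 genes tested. For Cd3e all ChLO values were below the WT values, as for 6.19% of all genes tested. Cd3e was dim, with means of 4.22 in ChLO and 5.07 in WT, both under the filter level. No difference was resolved at these signals. The part of these cells in the Nfil3 signal was not tested.

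Nr1d1, which encodes REV-ERB alpha, was dim and had higher signals in ChLO. It read 7.15, 6.72 and 7.21 in ChLO 1, 2 and 3, against 4.25, 4.67 and 6.71 in WT 1, 2 and 3. WT 3 lay just under the lowest ChLO liver, and WT 1 and WT 2 were far below it. The mean was 7.03 ± 0.27 in ChLO and 5.21 ± 1.32 in WT (SD, n = 3 each), a difference of 1.81 (SE 0.67, 95% interval 0.26 to 3.37; unadjusted p = 0.0272, limma adjusted p = 0.507). The WT mean was under the filter level of 5.5, so the gene was tested only because its ChLO signals were higher, and its difference supports nothing by itself. It was 1.33 without WT 1 and 2.56 without WT 3. The end of Nr1d1 overlaps that of Thra on chromosome 11 (98767932 to 98775377 for Nr1d1 and 98740776 to 98769006 for Thra, GRCm38.p6), and no source used here places its only probe set.

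Nr1d2, which encodes REV-ERB beta, was bright, and its means lay close together. Its brighter probe set read 12.68, 12.91 and 13.02 in ChLO 1, 2 and 3, against 12.99, 13.11 and 13.22 in WT 1, 2 and 3. The ranges overlapped, with ChLO 1 and ChLO 2 below all WT livers. The difference was -0.24 (SE 0.17, 95% interval -0.62 to 0.15, limma adjusted p = 0.676). With spike-in scaling it was 0.01. Against the median of all genes it was -0.30 under either scaling, as it had to be, since spike-in scaling shifts all genes of an array alike. The second probe set differed by 0.16 (SE 0.30). For Nr1d2 the interval leaves out a change as large as that of Nfil3.

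Rora, the activator that binds the same element, had 9 probe sets, of which 7 were past the filter. The brightest read 11.13, 11.33 and 11.65 in ChLO 1, 2 and 3, against 11.62, 11.69 and 11.60 in WT 1, 2 and 3. ChLO 3 lay inside the WT range and the other ChLO livers below it (difference -0.26, SE 0.18, 95% interval -0.68 to 0.15, limma adjusted p = 0.664). Leaving out ChLO 1 gave -0.15, and leaving out ChLO 3 gave -0.40. Spike-in scaling gave -0.01. Against the median of all genes it was -0.32 under either scaling, which the shift common to all genes fixes in advance. Of the 7 probe sets 6 were lower in ChLO, and their differences ran from -0.66 to 0.08. One with a mean of 8.73 separated the groups. It read 8.29, 8.41 and 8.51 in ChLO 1, 2 and 3, against 9.14, 8.98 and 9.07 in WT 1, 2 and 3 (difference -0.66, SE 0.19, unadjusted p = 0.00759, limma adjusted p = 0.502 over 22749 probe sets). Probe sets of 1 gene share the same RNA and are not replicates, and no source used here says which Rora transcripts each reads.

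**Figure D2:**
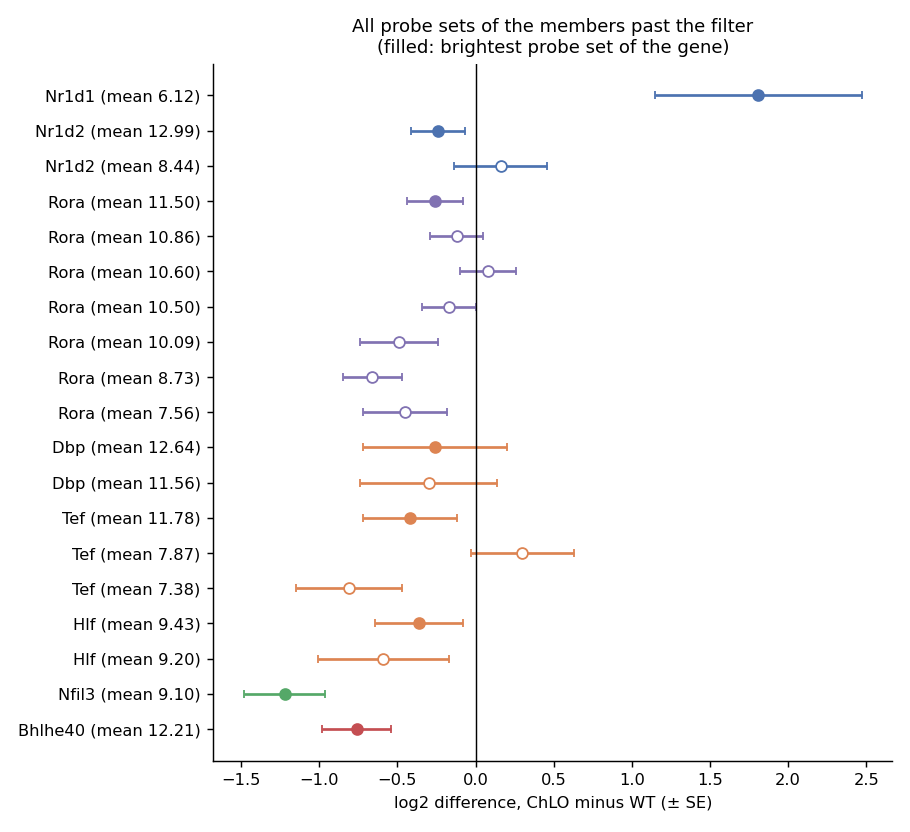
Log2 difference, ChLO minus WT, with its SE for the 19 member probe sets past the filter, grouped by gene and labelled with the mean log2 signal over the 6 arrays; filled points mark the brightest probe set of a gene. Nr1d1 lies at 1.81, Nfil3 at -1.22 and Bhlhe40 at -0.76, and the probe sets of Nr1d2, Rora and Tef fall on both sides of 0.

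The 3 PAR bZIP activators had slightly lower means in ChLO, but their values were spread more widely among ChLO livers than among WT livers. That was not particular to them, since ChLO arrays differed more from each other over all genes tested. Pearson correlations were 0.898, 0.932 and 0.951 between pairs of ChLO arrays, against 0.950, 0.953 and 0.954 between pairs of WT arrays. Dbp read 11.45, 12.69 and 13.38 in ChLO 1, 2 and 3, against 12.31, 12.86 and 13.13 in WT 1, 2 and 3. ChLO 1 was the lowest of the 6 livers and ChLO 3 the highest. The mean was 12.51 ± 0.98 in ChLO and 12.77 ± 0.42 in WT (SD, n = 3 each), a difference of -0.26 (SE 0.46, 95% interval -1.32 to 0.81, limma adjusted p = 0.872). Without ChLO 1 the difference was 0.27 and without ChLO 3 it was -0.70, so its direction rested on ChLO 1. The second Dbp probe set gave the same order of ChLO livers, 10.35, 11.67 and 12.21, against 11.44, 11.63 and 12.06 in WT.

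Tef read 10.98, 11.49 and 12.24 in ChLO 1, 2 and 3, against 11.91, 11.87 and 12.20 in WT 1, 2 and 3. As for Dbp, ChLO 1 was the lowest and ChLO 3 the highest of the 6 (difference -0.42, SE 0.30, 95% interval -1.13 to 0.28, limma adjusted p = 0.685). The difference ran from -0.76 without ChLO 3 to -0.13 without ChLO 1. Its 2 dimmer probe sets disagreed in sign, at 0.30 (SE 0.33) and -0.81 (SE 0.34).

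Hlf read 8.65, 9.47 and 9.63 in ChLO 1, 2 and 3, against 9.41, 9.66 and 9.77 in WT 1, 2 and 3. ChLO 1 again stood lowest, and the other ChLO livers lay within the WT range (difference -0.36, SE 0.28, 95% interval -1.01 to 0.29, limma adjusted p = 0.703). Without ChLO 1 it was -0.06. The second Hlf probe set differed by -0.59 (SE 0.42). The SDs in ChLO and in WT were 0.98 and 0.42 for Dbp, 0.63 and 0.18 for Tef, and 0.53 and 0.18 for Hlf, with no test of the spread.

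The order ChLO 1, ChLO 2, ChLO 3 from low to high was shared by the brightest probe sets of Dbp, Tef, Hlf, Nr1d2 and Rora, and the reverse order held for Nfil3. WT livers also rose from WT 1 to WT 3 for Dbp (12.31, 12.86 and 13.13), Hlf (9.41, 9.66 and 9.77) and Nr1d2 (12.99, 13.11 and 13.22). They did not for Tef or Rora, nor did they fall in that order for Nfil3. For Dbp, Hlf and Nr1d2 the order thus went with the replicate number in both groups. The labels do not say what same-numbered livers share. Centred profiles of Tef and Hlf differed by a root mean square of 0.19 log2 units over the 6 arrays, those of Dbp and Tef by 0.31, and those of Dbp and Nfil3 by 0.96. The Actb 3′ to 5′ gap (0.84, 1.03 and 1.46), the Gapdh gap (-0.25, -0.20 and -0.14) and the signal of Mlxipl itself (10.34, 11.22 and 11.48) ran in the same order over the 3 ChLO livers as the PAR bZIP genes. The lymphocyte marker sum (482, 532 and 609) did so too. The sums of hepatocyte (289157, 283402 and 356432), stellate (19520, 25624 and 9617) and myeloid markers (17210, 17932 and 9966) did not, and that of bile duct markers (1542, 753 and 379) fell. How many of all genes share the order was not counted. The part of any of these in the PAR bZIP values was not tested.

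**Figure D3:**
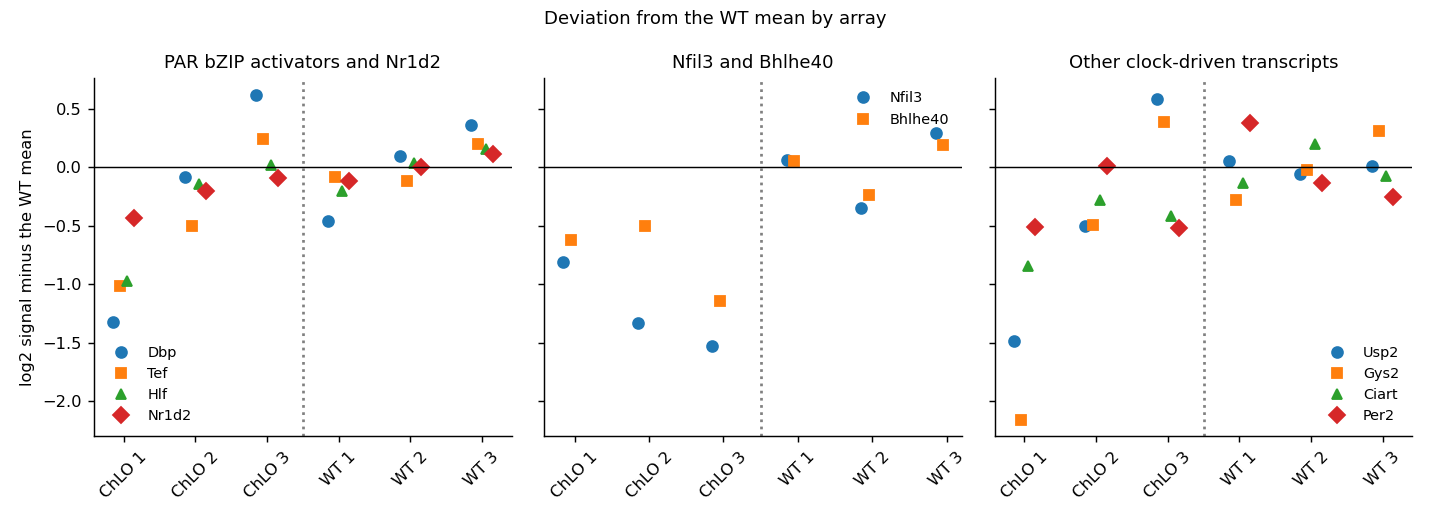
Log2 signal of single arrays minus the WT mean of the gene, for the PAR bZIP genes and Nr1d2, for Nfil3 and Bhlhe40, and for 4 other clock-driven transcripts, with ChLO arrays left of the dotted line and WT arrays right of it. Dbp, Tef, Hlf, Usp2 and Gys2 are lowest in ChLO 1 and near or above the WT mean in ChLO 3, whereas Nfil3 and Bhlhe40 are below all WT arrays in every ChLO array.

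The tested genes with the profile closest to Dbp, among those that are no members, were N4bp2, Enpp3 and Kcnn2, each at a root mean square distance of 0.11 log2 units over 6 arrays from centred values. Enpp3 read 9.52, 10.5 and 11.27 in ChLO 1, 2 and 3, against 10.38, 10.66 and 11.02 in WT 1, 2 and 3. Closest to Nfil3 were Adck5 and Dnase2a (0.27 each) and St6gal1 (0.28), which read 11.91, 11.31 and 11.10 in ChLO, against 12.35, 11.96 and 12.22 in WT. Closest to Nr1d1 were Fhl2 (0.25), Smyd3 and Slfn9 (0.40 each). With 6 arrays and 12598 genes, near matches of this kind are a description only.

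In the core clock around these factors, differences between the means were small beside the spread. Of 17 core clock genes 13 were tested, 9 with lower and 4 with higher means in ChLO, and none passed. At an unadjusted p under 0.05 there was 0 in either direction (5.46% of all genes tested were higher and 3.50% lower), and the median difference was -0.21. The groups did not overlap for 1 of the 13, with every ChLO array below every WT array, as for 6.19% of all genes tested. It was Ciart, a repressor of CLOCK and BMAL1, at 7.66, 8.22 and 8.08 in ChLO 1, 2 and 3, against 8.37, 8.70 and 8.43 in WT 1, 2 and 3 (difference -0.52, SE 0.24, limma adjusted p = 0.579). Per2, a CLOCK and BMAL1 inhibitor, differed by -0.34 (SE 0.24), Per1 by -0.21 (SE 0.29) and Per3 by -0.15 (SE 0.32). The signs of Per1 and Per3 turned without ChLO 1 (0.04 and 0.08). Csnk1e and Csnk1d, kinases that mark PER proteins for breakdown, differed by 0.54 (SE 0.33) and 0.31 (SE 0.24), and Csnk1d by -0.19 without probe sets that can match several transcripts. Cry2 differed by 0.03 (SE 0.29).

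Of 15 genes taken as REV-ERB and ROR targets 13 were tested, 9 lower and 4 higher in ChLO, and none passed over all genes. Unadjusted p-values under 0.05 were found for 3 lower and 1 higher (3.50% and 5.46% of all genes tested), and the median difference was -0.33, against 0.06 over all genes. None of the clock genes among them had such a p. Arntl read 6.90, 6.22 and 7.48 in ChLO 1, 2 and 3, against 7.15, 7.56 and 6.73 in WT 1, 2 and 3 (difference -0.28, SE 0.42), Cry1 differed by -0.33 (SE 0.26) and Clock by 0.21 (SE 0.27). Arntl differed by 0.04 without ChLO 2, and Clock by -0.28 as the mean of its probe sets. The 3 with the smallest p were metabolic genes. G6pc, which encodes the enzyme of the last step of glucose release and is itself a ChREBP target, read 9.76, 11.80 and 11.41 in ChLO, against 14.0, 14.29 and 14.49 in WT. Apoa5, an apolipoprotein that promotes triglyceride clearance, differed by -0.60 (SE 0.19, limma adjusted p = 0.455). Elovl3, a fatty acid elongase with a strong daily rhythm in liver, read 8.32, 9.86 and 11.11 in ChLO 1, 2 and 3, against 10.81, 11.95 and 12.28 in WT 1, 2 and 3 (difference -1.92, SE 0.67, limma adjusted p = 0.498), with the same order of ChLO livers as Dbp. Without ChLO 1 it was -1.20. Of the corepressor genes that REV-ERB proteins use, Hdac3 differed by 0.20 (SE 0.16), Gps2 by 0.28 (SE 0.31) and Tbl1xr1 by 0.08 (SE 0.18). Tbl1xr1 differed by 0.36 as the mean of its probe sets, by 0.65 without probe sets that can match several transcripts, and by -0.021 with array weights.

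Of 10 genes known as PAR bZIP targets 7 were tested, 4 higher and 3 lower in ChLO, with a median difference of 0.13, and none had an unadjusted p under 0.05. By array the median deviation from the WT mean was -0.90, 0.05 and 0.99 in ChLO 1, 2 and 3, against -0.22, 0.78 and 0.29 in WT 1, 2 and 3. The genes did not share 1 order. Cyp2b10 read 9.08, 8.07 and 7.19 in ChLO 1, 2 and 3, against 6.16, 7.99 and 4.44 in WT 1, 2 and 3, and Cyp2b9 read 8.78, 6.65 and 9.26 in ChLO, against 8.07, 6.90 and 4.85 in WT. The 3 with the smallest p were Cyp2b10 and Cyp2b9, cytochromes P450 of drug metabolism, at 1.91 (SE 0.87) and 1.62 (SE 0.91), and Alas1, the first enzyme of heme synthesis, at -0.47 (SE 0.29). Without WT 3 they were 1.03, 0.75 and -0.20. Without ChLO 1 Alas1 was -0.25, without probe sets that can match several transcripts Cyp2b10 was 1.07, and with array weights Cyp2b9 was 0.58.

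**Figure D4:**
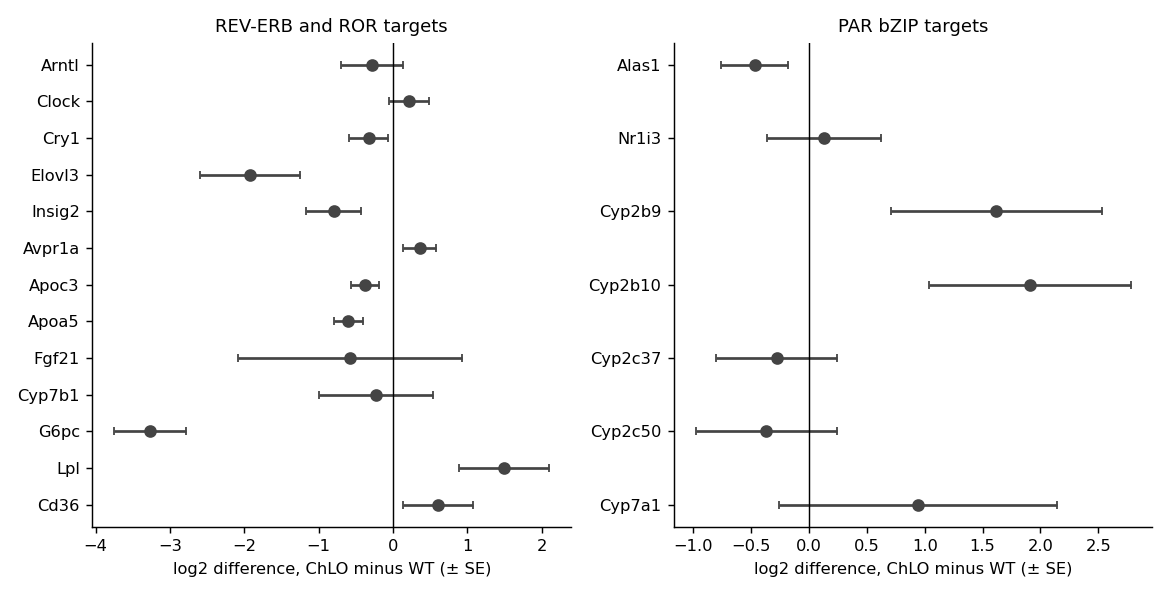
Log2 difference, ChLO minus WT, with its SE for the tested genes taken as REV-ERB and ROR targets (left, 13 genes) and as PAR bZIP targets (right, 7 genes). G6pc at -3.27 lies farthest from 0, the clock genes Arntl, Clock and Cry1 lie between -0.33 and 0.21, and the PAR bZIP targets lie on both sides of 0.

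Further E-box outputs were Gys2, liver glycogen synthase, Usp2, a deubiquitinase with a strong daily rhythm, Nampt, which makes an NAD precursor, and 1 more. None of the 4 had an unadjusted p under 0.05. Usp2 read 9.57, 10.55 and 11.63 in ChLO 1, 2 and 3, against 11.10, 10.99 and 11.05 in WT 1, 2 and 3, so ChLO livers lay on both sides of a narrow WT range. Gys2 read 10.68, 12.35 and 13.23 in ChLO, against 12.56, 12.82 and 13.15 in WT. The low value in ChLO 1 and the high value in ChLO 3 match the order of Dbp. The difference of Usp2 was -0.47 (SE 0.45), and 0.04 without ChLO 1. Nampt differed by -0.05 (SE 0.22), with a sign that turned with array weights.

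Further lists held glucocorticoid-responsive genes and immediate-early genes. No hormone or stress signal was measured, and their part in the members' signals was not tested. Of 10 glucocorticoid-responsive genes 4 were higher and 6 lower in ChLO, and 2 and 3 of them had an unadjusted p under 0.05 (5.46% and 3.50% of all genes tested), with a median of -0.21. Lpin1, a phosphatidate phosphatase, differed by -2.60 (SE 0.26, limma adjusted p = 0.0528), Mt1 and Mt2, the metallothioneins, by 3.26 (SE 0.50) and 3.15 (SE 0.74). Of 9 immediate-early genes, 8 were higher in ChLO, as were 7121 of the 12598 genes tested. Of these 8, 3 had an unadjusted p under 0.05 (5.46% of all genes), and the median of the list was 1.23, against 0.06 over all genes. The median deviation of the list from the WT mean was 0.74, 2.95 and -0.18 in ChLO 1, 2 and 3, against -0.08, -0.70 and 0.91 in WT 1, 2 and 3. This median followed neither the order of Dbp nor that of Nfil3. Myc differed by 2.09 (SE 0.35), Jun by 1.88 (SE 0.47) and Atf3 by 3.29 (SE 1.1). Their limma adjusted p-values were 0.167, 0.385 and 0.468. Atf3 in ChLO 3 (7.19) lay within the WT range of 5.94 to 7.71, and ChLO 1 (11.02) and ChLO 2 (11.58) lay above it. Myc fell from ChLO 1 to ChLO 3 (10.58, 9.87 and 9.16), in the order of Nfil3, and Jun and Atf3 did not.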

How the data were processed

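The deposited table holds log2 signals of 45101 probe sets on 6 arrays, made by the authors with MAS5, Affymetrix's single-array summary, per the submitters' processing notes. No source used here gives its version. The log2 scale and the scaling were read from the deposited values: on every array the linear signals had a mean of 500 after trimming 2% from each end, which hides any shift common to most transcripts. No quantile normalization had been applied. The number of arrays, 3 per group, limits the precision.

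The platform's annotation gave gene names, and only those with 1 symbol were used (34945). The 64 control probe sets were left out, as were probe sets whose mean log2 signal lay below the 40th percentile (5.5). Each gene was read from its brightest probe set, which left 12598 genes. The test was limma's (version 3.58.1, R 4.3.3), by lmFit and by eBayes with a mean-variance trend, with Benjamini-Hochberg adjustment over all genes. A second fit took all 22749 named probe sets past the filter. The procedure was tested on simulated data.

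The members and the gene lists were chosen with earlier results of these data known. The text names all 9 members, genes of the core clock, the 3 genes with the smallest p in each other list, Mlxipl, and the 3 genes whose profiles lay closest to those of Dbp, Nr1d1 and Nfil3. Other genes of the lists and markers are named only where a count or a summed signal turns on them, chosen after their values were seen. Alternatives were other scalings, filters, variance models, weights and probe set rules, the replicate number as a block and leaving out each array in turn. Spike-in scaling was added after seeing the data. Same-numbered arrays did not deviate together in every pair (correlations of 0.304, -0.166 and 0.0631 between their deviations from the group means), and they were not treated as paired. Promoter sequences are RefSeq's, build GRCm38.p6, from 250 bases before a transcript start to 50 after it, written along the gene's strand.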

Additional observations from a re-analysis of the deposited data

How the results depend on the processing

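The number of genes past the threshold was 0 in the main fit, 3 with no filter, 3 without probe sets that can match several transcripts, 7 with all probe sets as the unit, 1 with the replicate block and 568 with array weights, whose iterative estimate stopped before it converged; it ran from 0 to 301 when each array was left out, the highest without ChLO 3. The causes were not tested. The replicate block changed no member's call. With it the unadjusted limma p went from 0.589 to 0.314 for Dbp and from 0.202 to 0.101 for Tef. For Nfil3 it went from 0.00178 to 0.00232, and for Elovl3 from 0.0219 to 0.000247. Over 37 member and list genes, 615 of 663 recomputed values kept their direction and side of the threshold. Nfil3 alone among the members passed, with array weights (-1.33). Signs turned as follows. With spike-in scaling, which raised all genes alike, Nr1d2 was 0.012, Per1 0.038, Per3 0.10 and Nampt 0.20, yet against the median of all genes they stood at -0.30, -0.27, -0.21 and -0.11 as in the main fit, so these are no turns relative to other genes. With array weights Per1 was 0.19, Cry2 -0.33, Nampt 0.16 and Tbl1xr1 -0.021. Cry2 was -0.063 with quantile normalization, Clock -0.28 as a mean of probe sets, and Csnk1d -0.19 without probe sets of several transcripts. Leaving out single arrays gave ranges of -0.70 to 0.27 for Dbp, -0.50 to 0.041 for Per1, -0.50 to 0.078 for Per3, -0.17 to 0.26 for Cry2, -0.59 to 0.045 for Arntl, -0.99 to 0.040 for Usp2, -0.25 to 0.056 for Nampt and -0.051 to 0.16 for Tbl1xr1. The cause of these turns was not tested. Nr1d1 and Bhlhe41 were limited by signals near or below the filter level, and Nr1d1 could not be fitted with the 60th percentile filter.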
